A study of Mus musculus with 34 samples.

Results

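The 10 genes described here are Pou5f1, which encodes the transcription factor OCT4, Sox2, Utf1, Dppa2, Dppa3, Dppa4, Dppa5a, Lin28a, Zscan10 and Fbxo15, all known as genes of the pluripotent state of mouse embryonic stem (ES) cells. They were taken by name. All 10 were found among the 48709 genes counted in the 16 libraries of the triple-mutant set and among the 22018 genes counted in the 18 libraries of the single-mutant sets, 34 libraries in all.

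The study asked by RNA sequencing what the MTA proteins do in 129/Ola ES cells kept in self-renewal or released to differentiate. These proteins are related subunits of the nucleosome remodelling and deacetylase complex NuRD, and the study found that they can occur together in it. Mta123KO cells lack Mta1, Mta2 and Mta3. By the study's methods Mta2 exons were replaced or deleted on the 2 alleles of cells that were already Mta1-deleted and Mta3-floxed. The sources used here describe the Control cells in more than 1 way. In each, Mta3 is floxed and 1 Mta1 allele is deleted, with the other Mta1 allele either wild-type or floxed. Control and Mta123KO libraries, 4 in each group, are labelled either 2i+LIF, 2 kinase inhibitors and the cytokine LIF that hold ES cells in self-renewal (called labelled 2iL), or 48 h in N2B27 medium with neither (labelled 48 h). The sample titles carry a first number, 1 or 2, that was read as the cell line, so each of these groups was taken to hold 2 lines with 2 libraries each. The single mutants, all labelled 2i+LIF with 3 libraries a group, were Mta1_del/del against Mta1_flox/flox, Mta2_KO against Mta2_WT and Mta3_del/del against Mta3_flox/flox. The deleted Mta1 and Mta3 lines came from the floxed lines by Cre recombinase, and Mta2_KO is 1 derived line, so its 3 libraries share a clone. No label says that libraries of a single-mutant group came from separate cultures, and p-values measure only the spread between these libraries.

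OCT4 and SOX2 bind DNA together at many ES cell enhancers and keep the cells pluripotent. Around this pair works a wider set of genes. UTF1 is a chromatin-bound protein of ES and germ cells. DPPA2 and DPPA4 form a pair with a SAP domain that binds chromatin, DPPA3 (Stella) is a maternal factor known to protect DNA methylation in the early embryo, and DPPA5A binds RNA. LIN28A binds the precursors of let-7 microRNAs and blocks their maturation. ZSCAN10 is a zinc finger factor, and Fbxo15 encodes an F-box protein long used as a reporter of OCT4 and SOX2 activity. ES cells in 2i+LIF are called naive. On release they pass through a formative stage, in which OCT4 and SOX2 stay while naive factors such as NANOG and ESRRB go down and genes such as Fgf5 and Otx2 come up.

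The culture labels of the triple-mutant set go against the data, and every culture direction below is one of labels. In CPM, counts scaled to 1000000 a library, the summed level of 10 naive transcription factors was 177 to 267 in Control libraries labelled 2iL and 3820.4 to 4220.0 in those labelled 48 h. The 3 parental groups of the single mutants, labelled 2i+LIF, lay at 4774 to 6399, 4652 to 4972 and 3582 to 4430.2 CPM for Mta1_flox, Mta2_WT and Mta3_flox. Over 6 formative genes the sum was 1326 to 1930.4 CPM in Control labelled 2iL, 108 to 126 in Control labelled 48 h and between 123 and 248 in the 3 parental groups. The names of the 16 deposited tables also give the opposite culture to their labels. Exchanging the labels would turn the sign of both culture comparisons and of the interaction, and would swap the 2 comparisons of genotype. The libraries are therefore called by their label throughout. The ES cell markers Pou5f1, Sox2, Nanog, Zfp42 and Esrrb were present in all 34 libraries, with a summed level of 546 to 3896 CPM.

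The targeted genes were read next. Mta2 was 123 ± 7.85 CPM (SD, n = 4) in Control and 6.72 ± 2.12 CPM (SD, n = 4) in Mta123KO labelled 2iL, and 192 ± 7.05 CPM (SD, n = 4) against 8.28 ± 2.01 CPM (SD, n = 4) labelled 48 h. Mta3 was 65.1 and 40.8 CPM in Control and 19.0 and 15.0 CPM in Mta123KO. Mta1, of which the Control cells are themselves described as carrying a deleted allele, fell less, from 42.0 to 24.6 CPM labelled 2iL (log2 fold change -0.76 ± 0.18, adjusted p = 0.0061). Whether the reads counted for Mta1 and Mta3 lie outside the deleted exons was not tested. Totals were 37855790 to 57602285 counts a library in the triple-mutant set and 13105820 to 40613585 in the single-mutant sets. CPM were scaled by TMM, set on the 16 libraries of the triple-mutant set and on the 6 libraries of each single-mutant series, so levels in different sets stand side by side but were not tested against each other. In bulk RNA, fewer cells that express a gene and less RNA per cell cannot be told apart.

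Per length of transcript, Dppa5a and Pou5f1 were the 2 highest of the 10 genes in all 10 groups. In Control labelled 48 h the mean was 1304 CPM per kb of exon for Dppa5a, 231 for Pou5f1, 127 for Sox2 and 62.3 for Fbxo15, and no library of one of these overlapped with the next. Below them Dppa3 at 32.9, Dppa2 at 30.5, Dppa4 at 24.5 and Zscan10 at 24.2 CPM per kb overlapped with their neighbour in the order. Lin28a at 9.32 and Utf1 at 8.94 CPM per kb were lowest and overlapped with each other. In Control labelled 2iL these 2 took the third and the fourth place, at 112 CPM per kb for Utf1 and 106 for Lin28a, and Dppa3 was last at 3.73. In the parental groups of the single mutants Lin28a and Utf1 were the lowest pair, as in Control labelled 48 h, with Lin28a below Utf1 in Mta3_flox alone.

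**Figure D1:**
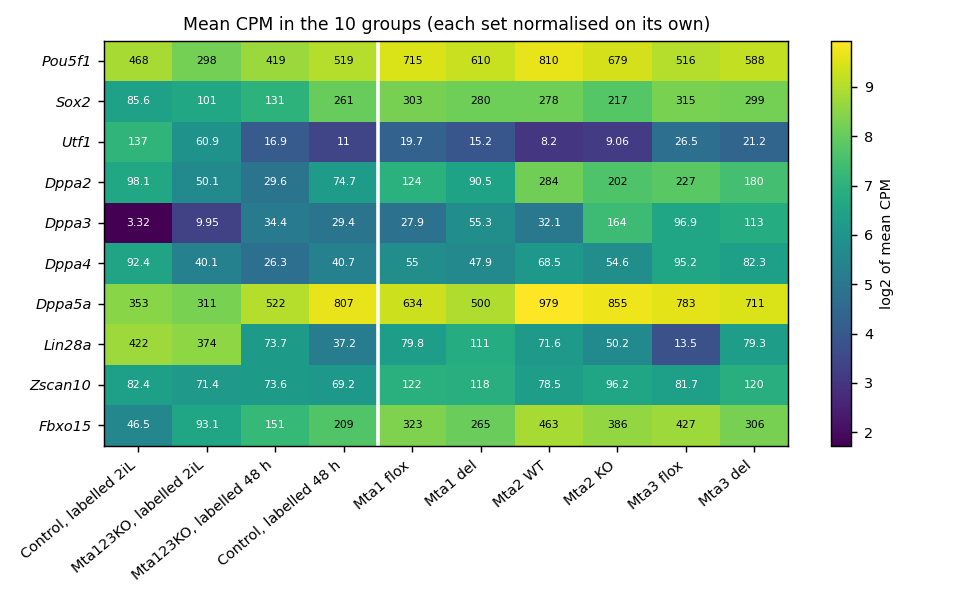
Mean CPM (number in each cell; colour, its log2) of the 10 genes (rows) in the 10 groups of libraries (columns), with the triple-mutant set left of the white bar. Lin28a is at 422 and 374 CPM in Control and Mta123KO labelled 2iL and at 37.2 and 73.7 CPM labelled 48 h, and Dppa3 is lowest in Control labelled 2iL at 3.32 CPM.

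The culture comparison in Control cells asks how the genes differ between self-renewing cells and cells released for 48 h. All 10 passed the test, 5 higher and 5 lower in libraries labelled 48 h (adjusted p under 0.05, edgeR quasi-likelihood test with Benjamini-Hochberg adjustment over 21240 genes), where 29.5% of all genes tested were called higher and 29.0% lower. Sizes ran from 1.12-fold for Pou5f1 to 12.3-fold for Utf1. The median log2 fold change was -0.04 over the 10 genes and 0.00576 over all genes tested. The genes thus moved apart, with Lin28a, Utf1 and Dppa4 strongly lower and Dppa3, Fbxo15, Sox2 and Dppa5a strongly higher in libraries labelled 48 h.

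Pou5f1 (chr17:35506018-35510772, plus strand; all positions are GRCm38) hardly moved. Its level was 496, 451, 483 and 441 CPM in the 4 Control libraries labelled 2iL and 524, 532, 514 and 507 CPM in those labelled 48 h. The groups did not overlap, but they were only 1.12-fold apart (log2 fold change 0.16 ± 0.05, adjusted p = 0.016). The call was lost when the 2 libraries of a line were summed (adjusted p = 0.072), when scaled on the ERCC spike-in RNAs (0.34, adjusted p = 0.11) in 1 fit of the 16 libraries (adjusted p = 0.32) and without the library of line 2, replicate 2, labelled 2iL (0.13, adjusted p = 0.060).

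Sox2 (chr3:34650405-34652461, plus strand), the partner of OCT4, was at 86.2, 104, 77.0 and 75.4 CPM in Control labelled 2iL and at 288, 265, 263 and 228 CPM labelled 48 h. All 4 libraries labelled 48 h were above all labelled 2iL, by 3.08-fold (log2 fold change 1.62 ± 0.11, adjusted p = 2.6e-07). So the 2 core factors differed in the size of their change, 3.08-fold for Sox2 and 1.12-fold for Pou5f1.

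Utf1 (chr7:139943789-139945112, plus strand) showed the reverse of Sox2. It stood at 139, 134, 133 and 141 CPM in Control labelled 2iL and at 13.6, 7.86, 13.2 and 9.16 CPM labelled 48 h. With that it was 12.3-fold lower in libraries labelled 48 h (log2 fold change -3.62 ± 0.16, adjusted p = 1.6e-08). Lin28a (chr4:134003330-134018841, minus strand), the block to let-7 maturation, went with it, at 460.1, 413, 401 and 416 CPM labelled 2iL and 36.4, 30.7, 45.0 and 36.9 CPM labelled 48 h. It was 11.2-fold lower (log2 fold change -3.49 ± 0.11, adjusted p = 1.6e-09), with no overlap between the groups.

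Dppa3 (chr6:122626410-122630272, plus strand) was near the bottom in Control labelled 2iL, at 3.30, 2.87, 3.31 and 3.81 CPM, and rose to 31.9, 30.4, 28.9 and 26.2 CPM labelled 48 h. The difference was 8.93-fold (log2 fold change 3.16 ± 0.10, adjusted p = 2.5e-09). Fbxo15 (chr18:84934782-84981473, plus strand) was at 38.3, 47.4, 45.6 and 54.9 CPM labelled 2iL and 209, 202, 216 and 209 CPM labelled 48 h, 4.54-fold higher (log2 fold change 2.18 ± 0.10, adjusted p = 1.6e-08). Dppa5a (chr9:78367052-78368177, minus strand), the highest of the 10 per kb of exon, ranged over 323 to 409.9 CPM labelled 2iL and 631 to 968 CPM labelled 48 h (log2 fold change 1.21 ± 0.13, adjusted p = 1.1e-05). For these 3 genes every library labelled 48 h was above every library labelled 2iL.

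The chromatin pair Dppa4 and Dppa2 lie next to each other, Dppa4 at chr16:48283733-48294237 and Dppa2 at chr16:48303908-48319723, both on the plus strand with 9670 bases between them. Dppa4 ranged over 86.4 to 98.4 CPM in Control labelled 2iL and 34.1 to 46.4 CPM labelled 48 h, 2.25-fold lower with no overlap (log2 fold change -1.17 ± 0.09, adjusted p = 9.0e-07). Dppa2 moved less, over 86.5 to 109 CPM labelled 2iL and 60.7 to 86.6 CPM labelled 48 h, with groups that overlapped (log2 fold change -0.38 ± 0.11, adjusted p = 0.014). Zscan10 (chr17:23600856-23611019, plus strand) moved least after Pou5f1, over 73.3 to 91.3 CPM and 64.7 to 78.0 CPM, and its groups overlapped (log2 fold change -0.24 ± 0.09, adjusted p = 0.040). The calls of Dppa2 and Zscan10 were lost when lines were summed (adjusted p = 0.090 and 0.054) and under spike-in scaling (0.42 and 0.86), that of Zscan10 also in 1 fit of the 16 libraries (0.20) and in 5 of the 8 fits with 1 library dropped.

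**Figure D2:**
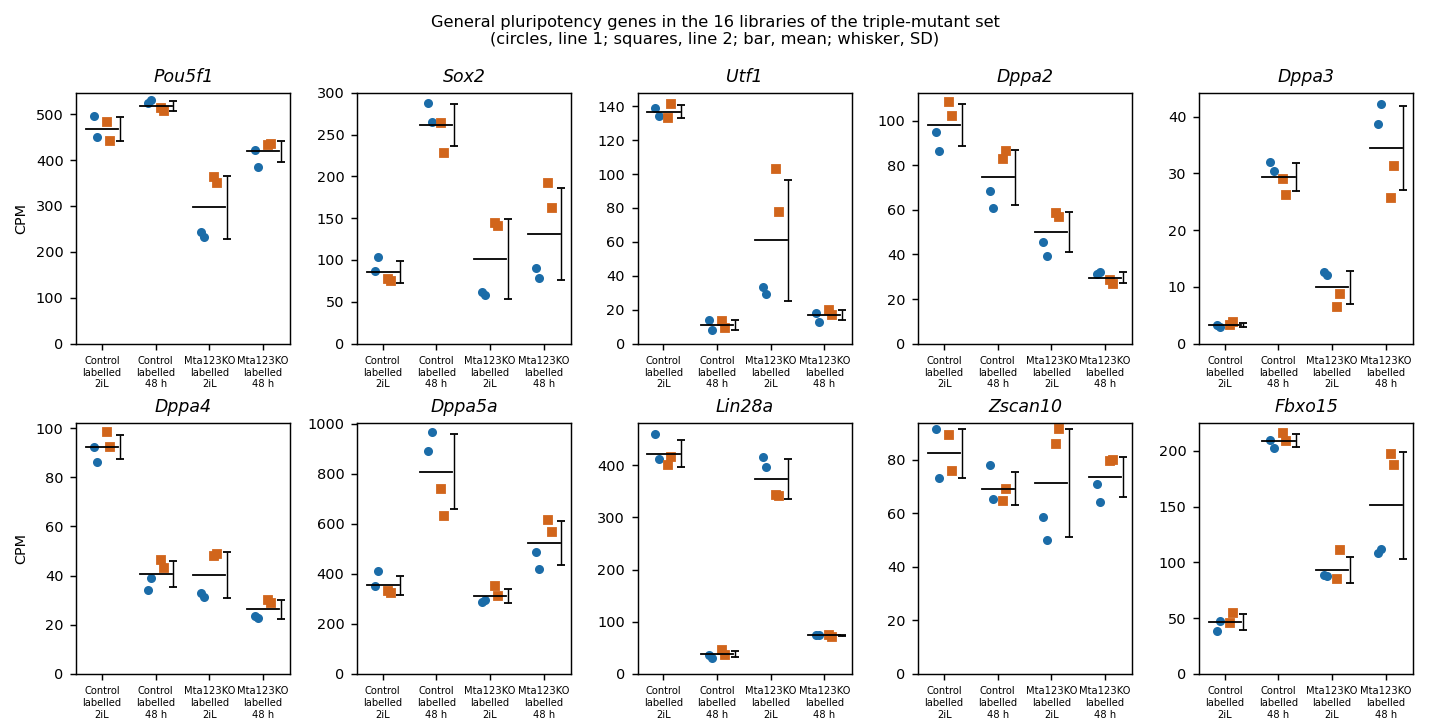
CPM (y axis, from 0) of the 10 genes in each of the 16 libraries of the triple-mutant set, by genotype and culture label (x axis); circles are line 1, squares line 2, bars the mean of 4 libraries and whiskers the SD. Utf1 and Lin28a are lower and Sox2, Dppa3, Dppa5a and Fbxo15 higher in Control libraries labelled 48 h, and the 2 Mta123KO lines separate in Sox2, which ranges over 57.6 to 144 CPM labelled 2iL.

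The bases before the starts of Pou5f1, Sox2 and Utf1 are shown because these 3 genes went different ways in Control labelled 48 h, with Pou5f1 near its level labelled 2iL, Sox2 higher and Utf1 lower. RefSeq's table of promoters on GRCm38.p6, with 250 bases before and 50 after each start, holds 6 windows for 5 of the 10 genes (Pou5f1 with 2, Sox2, Utf1, Lin28a and Zscan10). The stretches end before the first annotated start of each gene and run 5′ to 3′ on its own strand, Pou5f1 over chr17:35505782-35506017, Sox2 over chr3:34649745-34649994 and Utf1 over chr7:139943606-139943788. Capitals mark the GC box GGGCGG, on either strand, and ATGCAAA, the first 7 bases of the octamer that OCT4 is known to bind.
Pou5f1: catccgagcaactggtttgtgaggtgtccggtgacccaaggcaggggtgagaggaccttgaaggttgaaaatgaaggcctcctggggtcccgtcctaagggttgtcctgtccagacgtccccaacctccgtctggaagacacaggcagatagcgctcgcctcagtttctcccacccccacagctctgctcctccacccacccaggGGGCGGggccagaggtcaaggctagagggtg
Sox2: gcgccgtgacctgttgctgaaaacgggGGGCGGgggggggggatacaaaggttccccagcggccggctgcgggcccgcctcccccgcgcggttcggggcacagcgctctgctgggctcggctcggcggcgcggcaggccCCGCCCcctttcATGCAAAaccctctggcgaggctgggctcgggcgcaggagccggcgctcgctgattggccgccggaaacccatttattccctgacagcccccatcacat
Utf1: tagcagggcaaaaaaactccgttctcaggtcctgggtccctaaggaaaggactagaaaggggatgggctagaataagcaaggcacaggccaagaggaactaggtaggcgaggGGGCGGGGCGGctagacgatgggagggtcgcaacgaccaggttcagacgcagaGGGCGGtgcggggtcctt
The stretch of Utf1 holds 3 GC boxes, 2 of which overlap by 1 base, and its whole window holds 4. That of Sox2 holds 1 on each strand and that of Pou5f1 holds 1. Searched on both strands, a GC box was in 4 of the 6 windows and in 35.7% of all 32851 promoter windows of this length. The octamer ATGCAAAT was in 0 of the 6 windows and in 1.74% of all. ATGCAAA was in the window of Sox2 alone, 99 bases before that window's RefSeq start, which lies 410 bases before the start of the gene given above, and in 4.63% of all. The SOX core CATTGT was in 2 windows, those of Lin28a and the second of Pou5f1, and in 12.6% of all. These matches describe letters in a window and say nothing about binding.

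In Mta123KO cells, in which the study detected no intact NuRD, the same culture comparison asks whether the genes still respond. Of the 10 genes, 3 were higher and 4 lower in libraries labelled 48 h, where 12.4% of 21505 genes tested were called higher and 10% lower. The 7 called genes had the direction they had in Control, and how many of all called genes did so was not counted. The median log2 fold change was 0.20 over the 10 genes and 0.00338 over all genes tested. The 2 cultures came from the same lines and the libraries of 1 number deviated together, so the fit with a replicate block is given as well. That fit pairs libraries of the same number, which no label does, and counts the 2 libraries of a line separately. It called 5 higher and 4 lower, adding Pou5f1 (0.52, adjusted p = 0.0043) and Sox2 (0.40, adjusted p = 0.0021). With the libraries of each line summed, 2 against 2, edgeR called 0 of the 10 and 0 of all genes. At an unadjusted p under 0.05 that fit held 2 of the 10 genes as higher and 3 as lower, where it held 1949 of all genes as higher and 1619 as lower.

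Lin28a changed most of the 10, at 416, 397, 343 and 340.4 CPM in Mta123KO labelled 2iL and 73.5, 75.1, 74.7 and 71.4 CPM labelled 48 h. It was 5.10-fold lower (log2 fold change -2.35 ± 0.08, adjusted p = 6.1e-06), and the 4 libraries labelled 48 h lay close together. Utf1 was at 33.5, 29.5, 103 and 77.5 CPM labelled 2iL and 18.3, 12.8, 19.8 and 16.6 CPM labelled 48 h (log2 fold change -1.86 ± 0.40, adjusted p = 0.012). Its 2 lines were far apart labelled 2iL, so that it was 2.03-fold lower labelled 48 h in line 1 and 4.97-fold in line 2, against 12.7-fold and 12.2-fold in the Control lines. Dppa3 was higher, from 12.7, 12.04, 6.46 and 8.66 to 38.6, 42.2, 25.6 and 31.3 CPM (log2 fold change 1.78 ± 0.24, adjusted p = 0.0015).

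Dppa2 was at 39.5 to 58.6 CPM labelled 2iL and 26.6 to 32.3 CPM labelled 48 h, lower without overlap (log2 fold change -0.76 ± 0.14, adjusted p = 0.0052). Dppa4 was also lower (log2 fold change -0.62 ± 0.18, adjusted p = 0.038), with its call in 3 of the 8 fits with 1 library dropped, and Dppa5a higher (log2 fold change 0.74 ± 0.13, adjusted p = 0.0045). Fbxo15 sat at the threshold, with 88.5, 87.6, 85.3 and 111 CPM labelled 2iL and 108, 112, 197 and 187 CPM labelled 48 h (log2 fold change 0.69 ± 0.22, adjusted p = 0.0496), and lost its call under DESeq2's size factors (adjusted p = 0.052) with library totals alone (0.073) and in 6 of the 8 fits with 1 library dropped. Sox2 had 62.1, 57.6, 144 and 141 CPM labelled 2iL and 90.9, 78.1, 192 and 162 CPM labelled 48 h. Without a block it did not pass (log2 fold change 0.37 ± 0.40, adjusted p = 0.56), and its 2 lines differed by more than its 2 cultures. Zscan10 did not pass either (log2 fold change 0.04 ± 0.19, adjusted p = 0.90), being higher labelled 48 h in line 1 and lower in line 2.

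**Figure D3:**
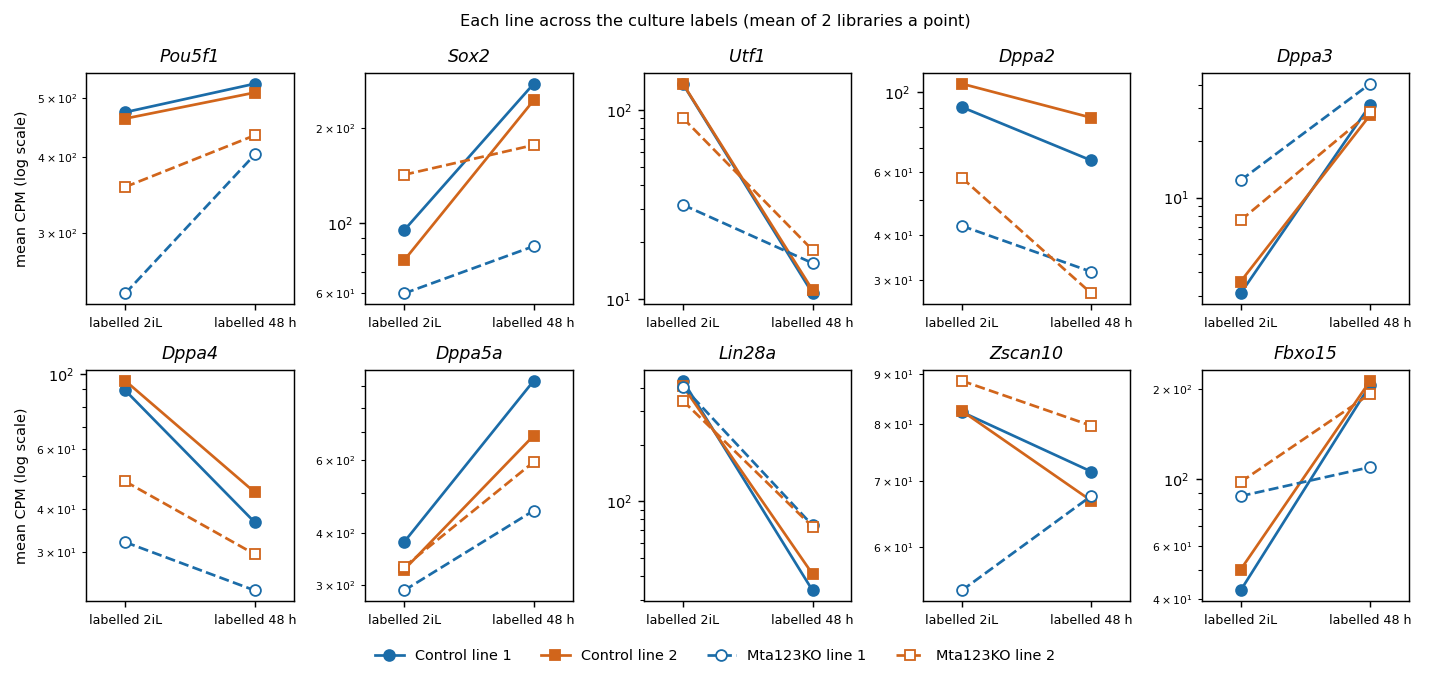
Mean CPM of 2 libraries (y axis, log scale) in each line under the 2 culture labels (x axis); filled points and full lines are Control, open points and broken lines Mta123KO, circles line 1 and squares line 2. The 2 Control lines differ by at most 1.35-fold, while Mta123KO line 1 lies below line 2 in Sox2 at both labels and in Utf1 and Pou5f1 labelled 2iL.

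The 2 Mta123KO lines differed from each other in most of these genes. The 2 libraries of one line lay wholly above the 2 of the other for 9 of the 10 genes labelled 2iL, where 70.2% of 22973 genes did so, and for 8 labelled 48 h, where 70.0% did. In Control it was 5 labelled 2iL, where 47.7% of genes did so, and 7 labelled 48 h, where 41.1% did. Sox2 averaged 59.9 CPM in line 1 and 142 in line 2 labelled 2iL, a ratio of 2.38, and 84.5 and 177 CPM labelled 48 h. Utf1 labelled 2iL averaged 31.5 and 90.4 CPM, and Pou5f1 238 and 357 CPM. Line 1 was thus the lower of the 2 in Pou5f1, Sox2 and Utf1. It was the higher in Dppa3, with 12.3 against 7.56 CPM labelled 2iL and 40.4 against 28.4 labelled 48 h.

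Trophoblast markers moved with the lines. The summed level of 8 trophoblast markers (Elf5, Gata3, Cdx2, Eomes, Krt8, Krt18, Hand1 and Tfap2c) was 449 to 481 CPM in line 1 and 114 to 122 CPM in line 2 of Mta123KO labelled 2iL, against 19.4 to 23.2 CPM in Control. Labelled 48 h it was 736 to 770.1 CPM in line 1, 174 to 185 CPM in line 2 and 82.0 to 101 CPM in Control. A few of the genes weighed most in these sums. In Mta123KO labelled 48 h Krt8 and Krt18 averaged 203 and 198 CPM, while Gata3 averaged 5.81 and Eomes 5.62 CPM. In Control labelled 48 h Tfap2c averaged 74.7 CPM. No marker was at 0 in all libraries of a group. All 8 were called higher in Mta123KO labelled 2iL, and 4 of 7 tested were higher and 1 lower labelled 48 h. Members of the other 3 marker lists differed with genotype as well. The sum of 6 fibroblast markers was 6.50 to 8.07 CPM in Mta123KO and 1.23 to 2.59 CPM in Control labelled 2iL, and 2.66 to 5.52 and 1.73 to 2.05 CPM labelled 48 h. Of those tested, 3 of 3 were higher in Mta123KO labelled 2iL and 1 of 2 labelled 48 h, with Thy1, a surface protein, higher in both (log2 fold change 2.93 ± 0.24, adjusted p = 2.2e-05 labelled 2iL). The sum of 7 primitive endoderm markers was 16.8 to 28.2 CPM in Mta123KO and 8.87 to 22.6 CPM in Control labelled 2iL, and 18.7 to 21.7 and 4.65 to 5.77 CPM labelled 48 h. Of these, 2 of 7 were higher and 2 lower labelled 2iL, and 3 of 6 higher and 1 lower labelled 48 h. Dab2, an endocytic adaptor, was among the higher in both (log2 fold change 4.05 ± 0.21, adjusted p = 2.7e-06 labelled 48 h). It weighed most in the sum of Mta123KO labelled 48 h, at 14.7 CPM on average. Among the lower were Gata6 labelled 2iL (-2.68 ± 0.70, adjusted p = 0.011) and Gata4 labelled 48 h (-1.98 ± 0.21, adjusted p = 8.3e-05). The sum of 4 early neural markers was 32.9 to 42.9 CPM in Mta123KO and 75.2 to 96.9 CPM in Control labelled 2iL, and 31.3 to 39.5 and 24.6 to 29.2 CPM labelled 48 h, with 3 of 4 lower labelled 2iL and 1 of 3 higher and 1 lower labelled 48 h. Whether cells of other types were present, and their part in the results for Mta123KO, was not tested.

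Mta123KO against Control asks how cells without the MTA proteins differ from Control cells in each culture. The study calls its control lines parental in its text, while a figure legend has the control derived alongside the mutant's parent. If Control is not the parent, loss of the MTA proteins and differences between separately derived lines cannot be told apart. In libraries labelled 2iL, 2 of the 10 genes were higher and 4 lower, where 27.1% of 21651 genes tested were called higher and 24.2% lower. The median log2 fold change was -0.18 over the 10 genes and 0.00585 over all genes tested. Dppa3 and Fbxo15 were higher, and Dppa4, Utf1, Dppa2 and Pou5f1 lower. With lines summed 2 stayed higher and 2 lower, Utf1 and Pou5f1 being lost (adjusted p = 0.16 and 0.10).

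Labelled 2iL, Dppa3 was at 12.7, 12.04, 6.46 and 8.66 CPM in Mta123KO, against 2.87 to 3.81 CPM in Control, 3.03-fold higher (log2 fold change 1.60 ± 0.22, adjusted p = 3.4e-04). Fbxo15 was at 88.5, 87.6, 85.3 and 111 CPM against 38.3 to 54.9 CPM (log2 fold change 1.02 ± 0.12, adjusted p = 2.0e-04). Both genes were higher in every mutant library than in any Control library. Among the lower genes, Dppa4 was at 32.8, 31.2, 47.8 and 48.7 CPM against 86.4 to 98.4 CPM in Control (log2 fold change -1.19 ± 0.15, adjusted p = 2.5e-04). Its neighbour Dppa2 was at 45.4, 39.5, 58.6 and 57.0 CPM against 86.5 to 109 CPM (log2 fold change -0.95 ± 0.13, adjusted p = 4.1e-04). Utf1 was 2.22-fold lower (log2 fold change -1.15 ± 0.36, adjusted p = 0.025), though the value was -2.11 with line 1 alone and -0.58 with line 2 alone. It kept its call in 5 of the 8 fits with 1 library dropped. Pou5f1 was at 243, 233, 363 and 351 CPM, below all 4 Control libraries (log2 fold change -0.64 ± 0.15, adjusted p = 0.0063). For Pou5f1 line 1 alone gave -0.96 and line 2 alone -0.37.

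The direction of Sox2 turned with the line. Over both lines it did not pass labelled 2iL (log2 fold change 0.26 ± 0.31, adjusted p = 0.51). Against the same 4 Control libraries it was lower with line 1 alone (-0.51, adjusted p = 0.0059) and higher with line 2 alone (0.75, adjusted p = 4.7e-04). Lin28a (log2 fold change -0.16 ± 0.08, adjusted p = 0.14), Dppa5a (-0.17 ± 0.10, adjusted p = 0.17) and Zscan10 (-0.19 ± 0.19, adjusted p = 0.43) did not pass the test.

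In libraries labelled 48 h, 2 of the 10 genes were higher and 5 lower in Mta123KO, where 26.6% of 21079 genes tested were called higher and 23.4% lower. Over the 10 genes the median log2 fold change was -0.38, and over all genes tested it was 0.00526. Dppa2, Sox2, Dppa4, Dppa5a and Pou5f1 were lower, and Lin28a and Utf1 higher. With lines summed, only Lin28a and Dppa2 of the 10 passed.

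Dppa2 changed most, at 31.1, 32.3, 28.6 and 26.6 CPM in Mta123KO labelled 48 h against 68.4, 60.7, 83.0 and 86.6 CPM in Control, 2.50-fold lower (log2 fold change -1.32 ± 0.12, adjusted p = 4.1e-05). Lin28a was at 73.5, 75.1, 74.7 and 71.4 CPM compared with 36.4, 30.7, 45.0 and 36.9 CPM, 1.99-fold higher (log2 fold change 0.99 ± 0.11, adjusted p = 9.0e-05). In both genes the groups lay well apart and the 2 mutant lines were close to each other. Sox2 was at 90.9, 78.1, 192 and 162 CPM compared with 288, 265, 263 and 228 CPM, below every Control library (log2 fold change -0.99 ± 0.26, adjusted p = 0.011). It was lower with either line alone, with -1.62, adjusted p = 3.3e-06 for line 1 and -0.55, adjusted p = 0.0023 for line 2, and lost its call with lines summed (adjusted p = 0.11).

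Pou5f1 was at 421, 386, 434 and 434 CPM in Mta123KO labelled 48 h, again below all Control libraries (log2 fold change -0.30 ± 0.06, adjusted p = 0.0025). Its call was lost with lines summed (adjusted p = 0.10) and under spike-in scaling (0.056). Dppa4 (log2 fold change -0.62 ± 0.13, adjusted p = 0.0031) and Dppa5a (-0.62 ± 0.16, adjusted p = 0.0090) were also lower. Utf1 was higher at 18.3, 12.8, 19.8 and 16.6 CPM compared with 13.6, 7.86, 13.2 and 9.16 CPM, with groups that overlapped (log2 fold change 0.63 ± 0.20, adjusted p = 0.027), and lost its call under spike-in scaling (0.38, adjusted p = 0.25), in 1 fit of the 16 libraries (adjusted p = 0.12) with lines summed (0.061) and in 4 of the 8 fits with 1 library dropped. Dppa3 (0.24 ± 0.15, adjusted p = 0.21), Zscan10 (0.10 ± 0.09, adjusted p = 0.40) and Fbxo15 (-0.46 ± 0.19, adjusted p = 0.072) did not pass. For Fbxo15 line 1 alone was lower (-0.92, adjusted p = 3.6e-06) and line 2 alone had -0.11, adjusted p = 0.15.

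**Figure D4:**
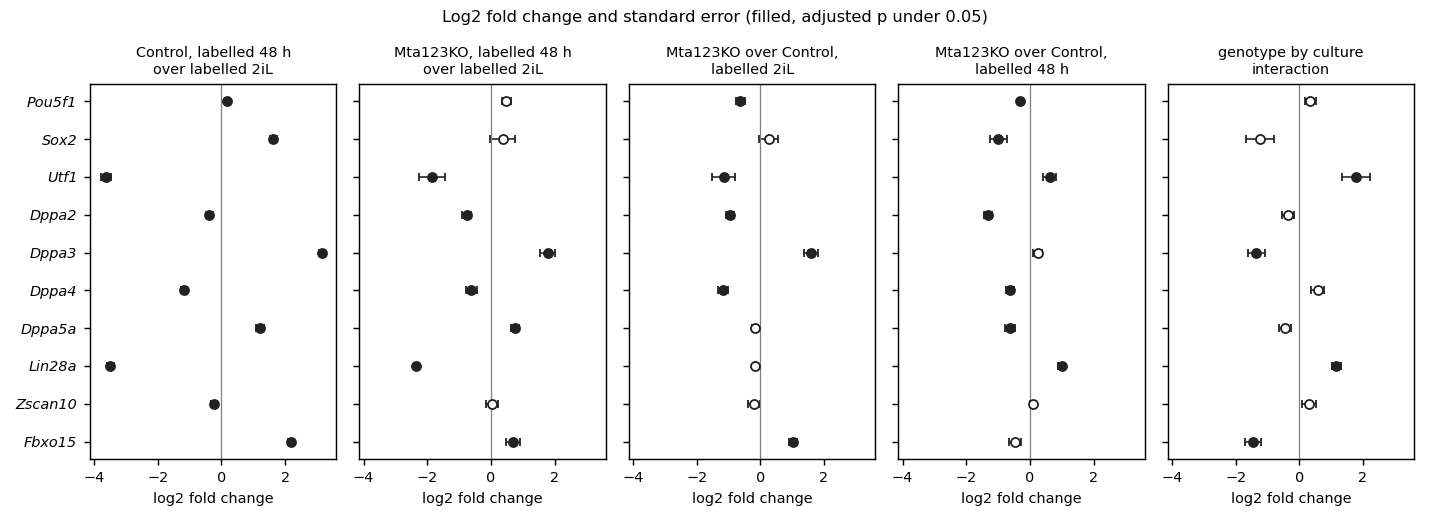
Log2 fold change (x axis, the same scale in every panel) with its standard error for the 10 genes (y axis) in the 5 comparisons of the triple-mutant set; filled points have an adjusted p under 0.05. All 10 points are filled for culture in Control, from -3.62 for Utf1 to 3.16 for Dppa3, and 4 for the interaction.

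The interaction of genotype and culture tests whether the culture difference itself differs between Mta123KO and Control. It was positive for 2 genes and negative for 2, where 12.5% of 22973 genes tested were called positive and 10.6% negative. The median was -0.03 over the 10 genes and -0.00168 over all. All 4 called genes had a smaller culture difference in the mutant, and how many of all called genes did so was not counted. The pattern was not particular to the 10 genes. Of the 10 naive transcription factors, all called higher in Control labelled 48 h, the interaction was positive for 0 and negative for 8. Of the 6 formative genes, all called lower there, it was positive for 4 and negative for 0. Lin28a was -3.49 in Control and -2.35 in Mta123KO (interaction 1.16 ± 0.14, adjusted p = 2.3e-05), and Utf1 -3.62 and -1.86 (interaction 1.78 ± 0.45, adjusted p = 0.0092). Dppa3 was 3.16 and 1.78 (interaction -1.35 ± 0.27, adjusted p = 0.0019), and Fbxo15 2.18 and 0.69 (interaction -1.47 ± 0.25, adjusted p = 5.3e-04). Sox2 missed the threshold (-1.24 ± 0.44, adjusted p = 0.052).

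With the replicate block the interaction was positive for 4 genes and negative for 4. It added Pou5f1 (0.37, adjusted p = 0.025), Dppa4 (0.60, adjusted p = 6.2e-04), Sox2 (-1.22, adjusted p = 3.6e-06) and Dppa5a (-0.44, adjusted p = 0.0034). That block counts the libraries of a line as separate pairs, so these p-values do not measure the spread between lines. The rise of Sox2 from labelled 2iL to labelled 48 h was 2.92-fold and 3.22-fold in the Control lines and 1.41-fold and 1.24-fold in the Mta123KO lines. With lines summed only Lin28a kept its call. The value of Lin28a lay between 1.08 and 1.26 in the 16 fits that each left out 1 library, with its call in all 16.

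Near copies of some of the genes took up reads. Here a copy is another gene with a transcript of at least 95% identity over at least 100 bases. Dppa2, Dppa3, Dppa4 and Dppa5a have processed pseudogenes of this kind, 2, 2, 2 and 4 of them among the genes counted in the triple-mutant set. Their summed CPM was a steady share of the gene's own CPM in the 4 groups, 37.3% to 38.1% for Dppa4, 20.3% to 20.7% for Dppa5a, 46.0% to 49.4% for Dppa3 and 63.7% to 70.7% for Dppa2. Adding them moved no log2 ratio of group means by more than 0.06. The counts of these 4 genes are therefore uncertain as levels, and the counting of reads with several matches is not given in the sources used here. The single-mutant tables hold none of these pseudogenes. Dppa5a also has a copy in Pigp, a protein-coding gene, with 95.9% identity over 417 bases. Pigp was at 24.9 CPM on average in the triple-mutant set, was also counted in the single-mutant sets and was left out of the sums above. Pou5f1 shares 14.1% of its exon bases with an antisense gene, Gm19553, which was at 286 CPM where Pou5f1 was at 468 CPM in Control labelled 2iL. Lin28a shares 5.86% with Gm13061 on the other strand, and the single exon of Sox2 lies inside Sox2ot without sharing exon bases. Both library kits mark strand, but the strand setting of the counting is not given in the sources used here, so reads of these pairs cannot be told apart.

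The single mutants ask whether 1 MTA gene alone matters in cells labelled 2i+LIF. Mta2_KO had the clearest changes, 2 of the 10 genes higher and 7 lower than Mta2_WT, where 23.5% of 15602 genes tested were called higher and 24.3% lower. Over the 10 genes the median log2 fold change was -0.26, and over all genes tested it was 0.00153. Mta2 itself was 9.94 ± 1.29 CPM (SD, n = 3) against 225 ± 8.64 CPM (SD, n = 3). Apart from Dppa3 all changes were under 1.5-fold.

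Dppa3 was at 159, 169.7 and 162 CPM in Mta2_KO and 32.7, 30.4 and 33.1 CPM in Mta2_WT, 5.10-fold higher (log2 fold change 2.35 ± 0.05, adjusted p = 2.0e-09). It was called in every alternative run, and the mutant libraries lay far above the parental ones. Zscan10 was at 96.2, 95.7 and 96.8 CPM compared with 80.2, 79.8 and 75.4 CPM (log2 fold change 0.29 ± 0.04, adjusted p = 3.0e-04). Among the lower genes Lin28a was at 50.4, 49.6 and 50.7 CPM compared with 73.5, 75.2 and 66.3 CPM (log2 fold change -0.51 ± 0.05, adjusted p = 5.4e-05). Dppa2 was at 202, 200.2 and 205 CPM compared with 285, 276 and 291 CPM (log2 fold change -0.49 ± 0.04, adjusted p = 1.6e-05). For each of these genes the groups did not overlap.

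Sox2 was at 209, 233 and 208 CPM in Mta2_KO and 296, 282 and 256 CPM in Mta2_WT (log2 fold change -0.36 ± 0.07, adjusted p = 0.0020). Genes of chromosome 3, where Sox2 lies, had a median log2 fold change of -0.50 over 736 tested genes in this mutant, beyond the value of Sox2, and the part of this in the result was not tested. Dppa4 (-0.33 ± 0.06, adjusted p = 0.0021), Fbxo15 (-0.26 ± 0.05, adjusted p = 0.0020), Pou5f1 (-0.25 ± 0.06, adjusted p = 0.0050) and Dppa5a (-0.20 ± 0.06, adjusted p = 0.027, called in 2 of 6 fits with a library dropped) were also lower, and Utf1 did not pass (0.14 ± 0.11, adjusted p = 0.33). In 1 fit of all 18 single-mutant libraries, which takes a larger spread from the other series, Dppa3 alone of the 10 was called.

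In Mta3_del/del, 2 genes were higher and 0 lower than in Mta3_flox/flox, where 8.32% of 15522 genes tested were called higher and 7.84% lower. Among those of the 10 genes with a lower value in the mutant, Fbxo15 alone had an unadjusted p under 0.05 (log2 fold change -0.48 ± 0.18, adjusted p = 0.092), and DESeq2 called it (adjusted p = 0.041). The median log2 fold change was -0.11 over the 10 genes and -0.0137 over all. Mta3 was 11.3 ± 1.86 CPM (SD, n = 3) against 70.2 ± 4.73 CPM (SD, n = 3). Lin28a was at 105, 36.6 and 96.3 CPM in the mutant and 18.5, 13.9 and 8.18 CPM in the parent. All 3 mutant libraries were above the parent, 5.93-fold on average, the second being nearest to it (log2 fold change 2.57 ± 0.42, adjusted p = 0.017). Without the first mutant library the call was lost (2.32, adjusted p = 0.077). Zscan10 was at 139, 95.9 and 124 CPM compared with 85.4, 84.4 and 75.2 CPM (log2 fold change 0.55 ± 0.14, adjusted p = 0.034). When each library was dropped in turn, it was called in 1 of 6 fits. The summed level of 6 fibroblast markers was 5.69 to 6.86 CPM in the mutant and 12.8 to 59.99 CPM in the parent, and its part in these values was not tested. The count of all genes called moved as much, from 1 higher and 2 lower without the first mutant library to 2066 and 2065 without the second. The other 7 genes had log2 fold changes between -0.34 ± 0.30 for Dppa2 and 0.22 ± 0.25 for Dppa3.

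In Mta1_del/del 0 of the 10 genes were called in either direction, where 0% of 14561 genes tested were called higher and 0% lower. By edgeR 0 of the 10 had an unadjusted p under 0.05, against 18 higher and 32 lower genes in all, and DESeq2 called 0 of the 10 and 1 gene in all. Mta1 itself was 43.9 ± 4.24 CPM (SD, n = 3) against 86.2 ± 16.7 CPM (SD, n = 3). It was not called either, as 0 of the 3 MTA genes passed, with log2 fold changes from -0.97 to -0.10. The fit thus missed the targeted gene, and 0 calls here cannot tell unchanged genes from undetected changes. Over the 10 genes the median log2 fold change was -0.21, and over all genes tested it was -0.00303. The libraries within each group differed widely. Dppa3 was at 34.8, 116 and 15.5 CPM in the mutant and 52.1, 13.8 and 17.7 CPM in the parent, and Lin28a at 199.6, 45.3 and 88.5 and 104, 44.8 and 90.7 CPM. Pou5f1 was at 746, 523 and 562 CPM compared with 745, 793 and 606 CPM (log2 fold change -0.23 ± 0.19, adjusted p = 1.0). Log2 fold changes ran from -0.46 ± 0.39 for Dppa2 to 0.98 ± 0.79 for Dppa3. For all 10 genes the groups overlapped, and the share of all genes with such overlap was not counted. Same-numbered libraries of this series deviated together, and with a replicate block 0 of the 10 were called as well.

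**Figure D5:**
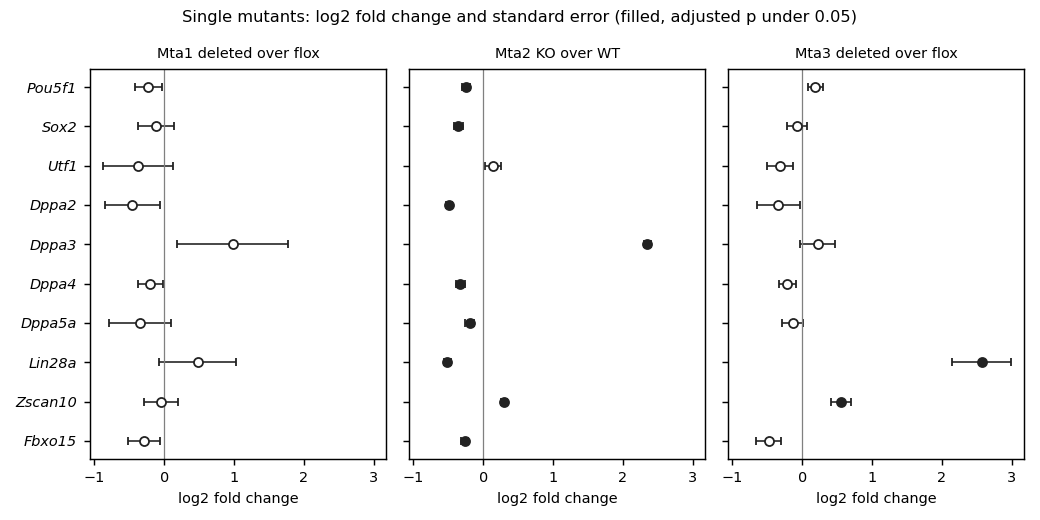
Log2 fold change (x axis, the same scale in every panel) with its standard error for the 10 genes (y axis) in the 3 single mutants against their parents; filled points have an adjusted p under 0.05. Dppa3 in Mta2_KO (2.35) and Lin28a in Mta3_del/del (2.57) stand out, and no point of Mta1_del/del is filled.

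Side by side, Dppa3 had log2 fold changes of 2.35 ± 0.05 in Mta2_KO, 1.60 ± 0.22 in Mta123KO labelled 2iL and 0.24 ± 0.15 labelled 48 h, while in Mta3_del/del it was 0.22 ± 0.25. Dppa2 was -0.49 ± 0.04, -0.95 ± 0.13 and -1.32 ± 0.12, lower in all of the first 3. Lin28a was -0.51 ± 0.05, -0.16 ± 0.08 and 0.99 ± 0.11, with 2.57 ± 0.42 in Mta3_del/del. Differences between these comparisons were not tested, apart from the interaction given above.

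Genes around the 10 were counted on lists. Of 19 other genes of pluripotent cells, 10 were higher and 8 lower in Control labelled 48 h, with a median log2 fold change of 0.40. Tcl1, a kinase cofactor, was at 55.1 ± 10.5 CPM (SD, n = 4) against 2.77 ± 0.700 CPM (SD, n = 4) (4.33 ± 0.19, adjusted p = 1.5e-08), and Tdh, threonine dehydrogenase of mouse ES cells, was also higher (3.80 ± 0.19, adjusted p = 4.0e-08). Epcam, an adhesion protein, was lower (-2.23 ± 0.09, adjusted p = 6.8e-09). In Mta123KO 6 of the 19 were higher and 6 lower labelled 48 h. Against Control, 6 were higher and 4 lower labelled 2iL, among them Fgf4, a growth factor and a known target of OCT4 and SOX2 (-1.96 ± 0.38, adjusted p = 0.0025), Phc1, a Polycomb subunit (-1.87 ± 0.36, adjusted p = 0.0024), and the co-receptor Tdgf1 (-1.85 ± 0.20, adjusted p = 9.5e-05). Labelled 48 h, 3 were higher, Epcam most (2.46 ± 0.15, adjusted p = 5.1e-06), and 9 lower, Tcl1 (-2.57 ± 0.45, adjusted p = 0.0014) and Tdh (-2.08 ± 0.16, adjusted p = 1.6e-05) most. In Mta2_KO 8 were higher and 6 lower, in Mta3_del/del 4 and 1, with Lefty1, a Nodal inhibitor, higher in both (1.02 ± 0.10, adjusted p = 3.2e-05 and 2.45 ± 0.45, adjusted p = 0.020). In Mta1_del/del 0 of the 19 were called by edgeR.

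Of 8 relatives of Sox2 and Pou5f1, 3 were higher and 4 lower in Control labelled 48 h. The neural and formative factors Pou3f1 (-5.65 ± 0.20, adjusted p = 4.2e-09), Sox1 (-4.79 ± 0.26, adjusted p = 6.6e-08) and Sox3 (-4.11 ± 0.19, adjusted p = 2.0e-08) were lower, opposite in sign to Sox2. Pou3f1 was at 73.2 ± 15.6 CPM (SD, n = 4) labelled 2iL and 1.45 ± 0.395 CPM (SD, n = 4) labelled 48 h. In Mta123KO labelled 2iL all 3 were lower than in Control (-2.21 ± 0.32, adjusted p = 4.9e-04 for Pou3f1, -2.37 ± 0.13, adjusted p = 3.5e-06 for Sox1 and -4.11 ± 0.34, adjusted p = 2.6e-05 for Sox3). Over the list 1 was higher and 4 lower labelled 2iL, and 1 and 2 labelled 48 h.

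Of 11 genes of the LIN28 and let-7 pathway, 3 were higher and 5 lower in Control labelled 48 h. Lin28b, the paralogue of Lin28a, went with it, at 52.9 ± 2.45 CPM (SD, n = 4) labelled 2iL and 7.29 ± 0.727 CPM (SD, n = 4) labelled 48 h (-2.85 ± 0.08, adjusted p = 9.5e-10). Against Control, 4 were higher and 4 lower in Mta123KO labelled 2iL, and 2 and 3 labelled 48 h. Lin28b was lower in Mta123KO at both labels (-2.64 ± 0.44, adjusted p = 9.9e-04 labelled 2iL and -1.23 ± 0.39, adjusted p = 0.027 labelled 48 h), while Lin28a did not pass labelled 2iL and was higher labelled 48 h. Hmga2, a chromatin protein and known let-7 target, was at 58.0 ± 29.4 CPM (SD, n = 4) in Mta123KO and 7.07 ± 2.17 CPM (SD, n = 4) in Control labelled 2iL (3.05 ± 0.39, adjusted p = 2.5e-04), and 2.56 ± 0.31, adjusted p = 1.8e-04 labelled 48 h. In Mta2_KO it was lower (-1.32 ± 0.11, adjusted p = 1.1e-05). In Mta3_del/del, where Lin28a was higher, Igf2bp1, Trim71 and Ago2 were higher by at most 0.55 on the log2 scale and Lin28b had 0.51 ± 0.27, adjusted p = 0.20. MicroRNAs were not measured here.

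Over the 16 libraries of the triple-mutant set the genes most like Pou5f1 in log2 CPM, among 12512 genes of at least 5 CPM on average, were Gm19553 (Pearson's r = 0.998), Stmn2 (0.973), Chml (0.971), Fgf4 (0.964) and Elavl2 (0.964). Gm19553 is the antisense gene that shares exon bases with Pou5f1. Among those most like Sox2 were Pecam1 (0.961), Mterf3 (0.959), Immt (0.956) and Tcl1 (0.955). Among the 10 genes themselves, Utf1 and Lin28a (r = 0.904) and Dppa3 and Fbxo15 (0.883) were most alike, and Utf1 and Dppa3 (-0.956) most opposed. The points are 4 groups of 2 lines each and share their culture and genotype, so these values describe the set and carry no test.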

How the data were processed

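RNA sequencing libraries of mouse ES cells were read from 34 deposited tables of counts per gene, 1 a library. The authors trimmed the reads with Trim Galore, aligned them with TopHat2 to GRCm38/mm10 and made the counts with featureCounts on an Ensembl annotation. Which of 2 stranded kits made each library is not given in the sources used here. The tables hold 48709 genes and 92 ERCC spike-in rows in the triple-mutant set (37855790 to 57602285 counts a library) and 22018 genes in the single-mutant sets (13105820 to 40613585). Spike-ins stayed out of library sizes and tests.

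Groups follow the sample labels. In R 4.3.3, edgeR 4.0.16 with TMM scaling, filterByExpr and the quasi-likelihood F test was fitted to the groups of each of 8 comparisons, and p-values were adjusted over all genes tested by Benjamini-Hochberg. A gene is called at an adjusted p under 0.05. Fits were tested on simulated data first. Log2 fold changes are given ± standard error. All 10 genes passed the filter in all 8 comparisons. Gene identifiers were matched to the GENCODE annotation of GRCm38 for 48349 and 21852 of the genes, which also gave positions and exon length.

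Libraries of 1 number deviated together in the culture comparisons (lowest r of deviations 0.27 in Control and 0.55 in Mta123KO) and in the Mta1 series (0.43), and not in the other comparisons (lowest r -0.25). In the culture comparisons these values do not tell a pairing of libraries from a shared line. No 2 libraries agreed within sampling noise.

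Alternatives were DESeq2 1.42.0, its size factors, library totals, no filter, a fold threshold (log2 of 1), a replicate or line block, 1 fit of a whole set, summed lines, spike-in scaling and leaving out each library. Fits with 1 Mta123KO line alone were chosen after seeing the data. The 10 genes and all lists were chosen with earlier results of these data known. From each list, at most 3 called genes a comparison of at least 1 CPM on average were named, by size of change, with values of the same gene elsewhere added after they were seen. One gene that the rule on likeness to Sox2 would name is not reported here.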

Additional observations from a re-analysis of the deposited data

Results flagged for a closer look

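Of 40 sets of 4 libraries, the 10 genes in the 4 groups of the triple-mutant set, 1 held a library set apart from the other 3. Fbxo15 was at 111 CPM in line 2, replicate 2, of Mta123KO labelled 2iL, while the other 3 libraries lay at 85.3 to 88.5 CPM. Among 4 independent libraries chance would set 1 apart in about 1 in 20 groups. These groups hold 2 lines of 2 libraries each, so that rate does not apply to them.

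The effect of culture differed between Mta123KO and Control for 4 genes by the test of the interaction (edgeR quasi-likelihood test, adjusted p under 0.05). On the log2 scale the difference was 1.78 ± 0.45 for Utf1, 1.16 ± 0.14 for Lin28a, -1.35 ± 0.27 for Dppa3 and -1.47 ± 0.25 for Fbxo15. For Utf1 it was 2.63 with Mta123KO line 1 alone and 1.29 with line 2 alone, and for Fbxo15 -1.83 and -1.23.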

How the results depend on the processing

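Of 590 log2 fold changes of the 10 genes under the settings other than leaving out a library, 529 kept their direction and their side of the threshold, 40 lost a call, 20 gained one and 1 turned sign. Leaving out 1 library gave 660 values, of which 597 kept both. Of 80 values of the 10 genes from fits with 1 Mta123KO line alone, which were chosen after seeing the data, 56 did. The cause was not tested where none is named. The lines share cells, so p-values over 4 libraries of 2 lines rest on few independent units, and the depth of the single-mutant libraries was lower.

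Counts of the 10 genes moved as follows. With libraries of a line summed, which leaves 2 against 2, culture in Control had 3 lower, culture in Mta123KO 0 higher and 0 lower, Mta123KO against Control 2 lower labelled 2iL and 1 higher and 1 lower labelled 48 h, and the interaction 1 positive and 0 negative. With a log2 fold change over 1 also asked, culture in Control had 3 lower, culture in Mta123KO 1 higher and 2 lower, Mta123KO against Control 2 lower labelled 2iL and 0 higher and 1 lower labelled 48 h, Mta2_KO 1 higher and 0 lower, and Mta3_del/del 1 higher. Spike-in scaling gave 3 lower for culture in Control and 1 higher for Mta123KO labelled 48 h. It moved the median log2 fold change of all genes by 0.18 for culture in Control, -0.19 for Mta123KO labelled 48 h and -0.22 for the interaction, and Zscan10 labelled 48 h turned to -0.10. In 1 fit of a set, 1 was higher in Mta123KO labelled 48 h, and 1 higher and 0 lower in Mta2_KO. The replicate block gave 5 higher for culture in Mta123KO and 4 positive and 4 negative for the interaction, and a line block gave 5 higher for culture in Mta123KO. In Mta2_KO, whose numbers did not pair, the block took the call of Dppa5a (-0.20, adjusted p = 0.0504), and in Mta123KO labelled 48 h, also unpaired, it gave one to Fbxo15 (-0.52, adjusted p = 0.047). It changed no call among the 10 genes in Control culture, Mta123KO labelled 2iL or the Mta1 and Mta3 series. DESeq2 called 1 lower in Mta3_del/del.

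With Mta123KO line 1 alone culture had 6 higher, the genotype 7 lower labelled 2iL and the interaction 5 positive, while line 2 alone gave 5 higher for culture and 4 negative for the interaction. Over all genes, line 1 alone gave 7172 higher and 6783 lower for the genotype labelled 2iL. The counts of all genes for culture are given below, and those for the interaction stayed within 1.5-fold of the main counts. Sox2 labelled 2iL turned to -0.51 and Zscan10 labelled 48 h to -0.0227 with line 1. With line 2, Zscan10 turned to -0.17 for culture and 0.12 labelled 2iL, and Dppa3 labelled 48 h to -0.0357.

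Leaving out 1 library gave 1 to 2 genes higher in Mta123KO labelled 48 h, 2 to 4 positive in the interaction (4 without line 2, replicate 1, of Mta123KO labelled 2iL) and 0 to 2 higher in Mta3_del/del. Values turned sign for Zscan10 for culture in Mta123KO (-0.10 to 0.18), in the Mta1 series for Sox2 (-0.30 to 0.0652), Utf1 (-0.72 to 0.0506), Dppa3 (-0.15 to 1.79), Dppa5a (-0.68 to 0.0258), Lin28a (-0.25 to 0.85) and Zscan10 (-0.36 to 0.10), and in the Mta3 series for Sox2 (-0.16 to 0.0902), Dppa2 (-0.54 to 0.16) and Dppa3 (-0.10 to 0.42), none of them called.

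Over all genes, called higher and lower, main counts were 6261 and 6158 for culture in Control, 2662 and 2155 for culture in Mta123KO, 5867 and 5248 and 5608 and 4940 for Mta123KO labelled 2iL and labelled 48 h, 2879 and 2427 for the interaction, 3671 and 3789 for Mta2_KO and 1291 and 1217 for Mta3_del/del. The fold threshold gave 2210 and 2805, 1041 and 994, 2861 and 1609, 2969 and 1249, 1759 and 1234, 828 and 942 and 126 and 815 in that order. For culture in Mta123KO the replicate block gave 4882 and 4262, a line block 5391 and 4861, summed lines 0 and 0, spike-in scaling 1478 and 1317, 1 fit 3774 and 3285, line 1 5265 and 4754 and line 2 4595 and 4403. Summed lines gave 2253 and 1505 labelled 2iL, 2568 and 1517 labelled 48 h and 406 and 304 for the interaction, and spike-in scaling 5993 and 3664 for culture in Control, 3442 and 4346 labelled 48 h and 1383 and 1981 for the interaction. The interaction with the block had 4520 and 4093, Mta2_KO in 1 fit 1252 and 1370 and Mta3_del/del with library totals 685 and 1323, and without 1 library 1 to 2066 higher and 2 to 2065 lower. DESeq2 called 1 gene lower in Mta1_del/del.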
